A study of Mus musculus with 8 samples.

Results

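Hippocampal RNA from Pyk2 knockout mice was compared with hippocampal RNA from the wild-type mice that served as controls of the knockout line. The comparison rested on 4 of the 8 libraries of the series, 2 from knockout mice (KO) and 2 from their controls (KO controls), chosen by genotype label and not by any measured value. The KO mice were C57BL/6 mice carrying a CRISPR deletion of pyk2, the gene listed as Ptk2b, and the KO controls were wild-type C57BL/6 mice. The other 4 libraries came from C57BL/6 mice with a CRISPR Y402F mutation of pyk2 and from their own wild-type controls, again 2 libraries a group, and are given beside the KO values. Whole hippocampus was the tissue in every library. Which part of Ptk2b was deleted, and whether a line came from 1 founder, were not given in the sources used here. Age, sex, time of day and pooling of animals were not given either, so the p-values below measure the spread between libraries. By the sex-linked genes Xist and Ddx3y, the 2 libraries of each mutant group differed in sex pattern, so their spread includes a sex difference. The 2 libraries of each control group shared a pattern, and their spread may be technical.

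The 2 sides of the comparison came as different kinds of table. KO and Y402F libraries were deposited with Entrez gene numbers, estimated read counts and FPKM (read fragments divided by transcript length and library total), whereas all 4 control libraries were deposited as Cufflinks tables with FPKM only. Genotype and table type therefore changed together in the KO comparison and cannot be told apart in it. The Y402F comparison shares no library with the KO comparison but carries the same change of table type, and for that reason its values stand beside those of the KO. The edgeR quasi-likelihood test of KO against Y402F compared libraries of 1 table type. Values below are FPKM scaled between libraries by their median ratio, and differences are on the log2(scaled FPKM + 1) scale, which understates changes of low genes.

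Pyk2 is a cytoplasmic tyrosine kinase related to focal adhesion kinase (FAK, from Ptk2). It is abundant in forebrain neurons and is activated by calcium, by G protein-coupled receptors and by protein kinase C. Activation brings autophosphorylation of the tyrosine that is mutated in Y402F, which recruits Src family kinases, and the complex acts on adaptors such as paxillin and p130Cas, on GTPase regulators, on the ERK cascade and on NMDA receptor signalling. In Y402F that tyrosine is replaced by phenylalanine. The series addressed the part of Pyk2 and of this site in contextual fear memory.

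The 4 mutant libraries held estimated counts summing to between 5756180 and 6017219, and depth was not given for the controls. The tables shared 17705 genes by symbol, of which 12977 had a mean of at least 1 scaled FPKM and were tested. The genes outside this join held 1.09% and 0.907% of the summed FPKM in the KO libraries but 51.9% and 52.9% in the KO controls. Markers of hippocampal neurons were present on both sides, as Fibcd1 of CA1 pyramidal cells (34.7 and 41.9 in KO, 34.9 and 35.3 in KO controls) and Rgs14 of CA2 cells (58.8 and 71.9; 63.0 and 45.0) showed. Xist and Ddx3y gave a female pattern for KO 1 and both KO controls and a male pattern for KO 2, while the Y402F libraries held 1 of each and both Y402F controls were male by this pattern. Choroid plexus RNA was low in all 4 libraries of the comparison, with Ttr at 1.19 and 10.2 in KO and at 9.05 and 7.71 in KO controls. Summed choroid plexus markers were 41.8 and 56.0 in KO and 51.3 and 49.4 in KO controls. In the Y402F line they were 41.6 and 756 in the mutants and 1148 and 1174 in the controls. The part of choroid plexus tissue in comparisons with that line was not tested.

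The targeted gene came first. Ptk2b (Entrez gene 19229; chr14:66153257-66281052 in the control tables, whose positions lie on GRCm38) stood at 56.1 and 68.7 (scaled FPKM) in KO, against 309 and 308 in KO controls. The KO level was 20.2% of the control level, which is -2.30 on the log2 scale (SE 0.11; adjusted p = 2.43e-06 in limma), and the groups were far apart. In Y402F it was at 353 and 396 against 323 and 317, with no call (0.22, SE 0.11, adjusted p = 0.143). The difference between the 2 effects, -2.52, passed the test, and between tables of 1 kind the KO had 1204 and 1511 estimated reads against 7600 and 8813 in Y402F (edgeR log2 difference -2.59, adjusted p = 2.9e-09). RNA of the gene thus remained measurable in the KO. Ptk2, which encodes FAK, the other member of the family, was at 21.7 and 20.2 in KO and at 34.7 and 24.8 in KO controls. Its libraries did not overlap, but the difference of -0.47 (SE 0.17) did not pass the test (limma adjusted p = 0.0643). Without KO control 2, the lower of the controls, it was -0.70 and passed (limma adjusted p = 0.0186), and without KO control 1 it was -0.23.

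The KO and its controls differed at very many genes. Of the 12977 genes tested, 4890 (37.7%) passed an adjusted p of 0.05 in limma, 2173 (16.7%) higher and 2717 (20.9%) lower in KO, and 1613 of them differed by at least 1 on the log2 scale, 443 higher and 1170 lower. At 71% of all genes tested the 2 KO libraries did not overlap the 2 KO controls, so a lack of overlap by itself sets few genes apart. The Y402F comparison called 4199 genes (32.4%), 13.1% higher and 19.3% lower. Of the KO calls, 94.8% had the same sign in Y402F, beside 78.6% of all genes tested, and 3016 genes were called with the same sign in both, which was 61.7% of the KO calls and 71.8% of the Y402F calls. Across genes, which are not independent replicates, the 2 sets of differences had a Pearson r of 0.819 and a Spearman coefficient of 0.749. The first principal component, 65.6% of the variance, placed the 4 mutant libraries between -46.1 and -41.8 and the 4 controls between 41.9 and 45.7.

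The direction of a difference depended on how libraries were scaled, and all directions below are relative to the median gene. Of the KO calls 44.4% were higher in KO, and this share was 29.6% with FPKM as deposited, 56.9% with quantile normalization and 98.8% of 12003 calls when the FPKM sums were set equal. The median of all genes was 0.00 here, -0.12 with FPKM as deposited and 1.51 with equal sums. Without KO 1 the number of calls was 3105.

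**Figure D1:**
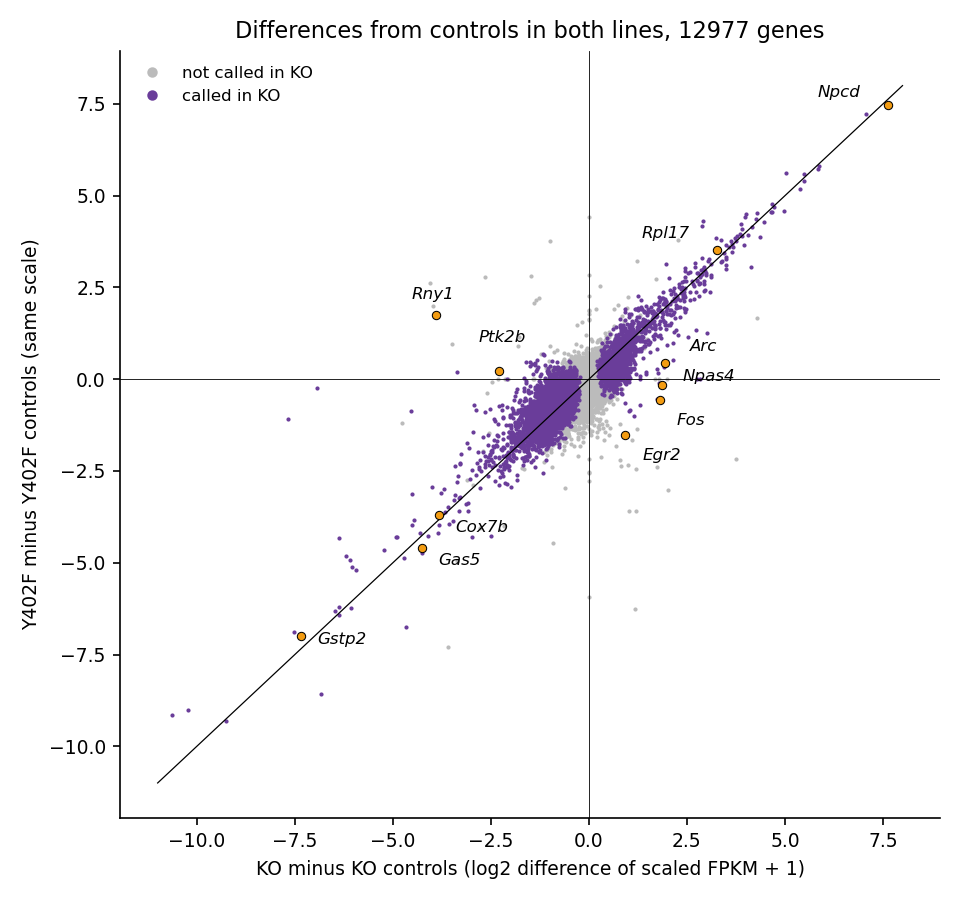
Each point is a gene, with the log2 difference of KO from KO controls on the horizontal axis and that of Y402F from Y402F controls on the vertical axis (12977 genes, 2 libraries a group). Most genes lie along the diagonal (r = 0.819), while Ptk2b lies at -2.30 and 0.22 and Fos at 1.80 and -0.56.

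Only 4 genes (0.0308% of those tested) passed the adjusted test when the Y402F difference was subtracted from the KO difference, all lower in KO by this measure, while 1688 (13%) had an unadjusted limma p under 0.05. Besides Ptk2b these were A830082N09Rik, Rny1 and Mir8104, and the last was listed at 0 in all 4 libraries of the KO comparison. By Xist and Ddx3y the KO controls were female and the Y402F controls male, so this difference also carries a change of sex. With a term for sex in limma, 135 genes passed, 23 higher and 112 lower. Between KO and Y402F, edgeR called 1 gene of 15032 (0.00665%), Ptk2b, with 324 (2.16%) at an unadjusted p under 0.05. DESeq2 called 2 genes in the same libraries, Ptk2b and Npas4.

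Of the 10 largest falls under the naming rule, which leaves out clone and small RNA symbols, 9 were also called lower in Y402F. A830082N09Rik, which that rule leaves out here, fell by 6.95 on the log2 scale in KO and had -0.25 in Y402F, with no call against the Y402F controls (-0.16, limma adjusted p = 0.507). Gstp2, a glutathione transferase, was at 0.733 and 0 in KO against 209 and 217 in KO controls, and at 0 and 0.760 against 169.5 and 168 in Y402F. Nbr1, an autophagy receptor, was also lower, at 40.8 and 34.4 against 1948 and 5988 (-6.47, SE 0.44, limma adjusted p = 1.92e-05), and its 2 control values were far apart. Bc1, a short neuronal RNA that represses translation in dendrites, was at 13757 and 15416 against 1014410.0 and 984336 (-6.10, SE 0.23, adjusted p = 8.04e-07). In the controls Bc1 alone thus outweighed every other gene named here. The remaining 7 were Snurf, Tuba1c, Hmga1b, Chd9, Snhg9, Zbed5 and Ly6c2, with log2 differences from -6.04 (Snurf) to -4.51 (Zbed5) for those above 0 in a KO library. Ly6c2, of a lymphocyte antigen family, was listed at 0 in both. Several of them have close copies in the mouse genome, and the copies moved the other way or less. Gstp1 was at 213 and 252 in KO against 166 and 156, Tuba1a at 851 and 913 against 281 and 278, and Hmga1 at 44.9 and 50.5 against 28.9 and 29.9. These partners were picked after their values were seen, and how reads were divided between the copies was not tested. The falls in Y402F ran from -7.00 (Gstp2) to -3.13 (Zbed5), and Snhg9 had no call there. Snhg9, a short small-nucleolar-RNA host gene, was listed at 0 in both KO libraries against 19.1 and 25.5, but in the Y402F controls it ranged from 0 to 6.32.

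All 10 of the largest rises were also called higher in Y402F. Npcd was at 193 and 202 in KO and listed at 0 in both KO controls, and it was at 214 and 215 in Y402F. Chn1os3, an antisense transcript at the Chn1 locus, was at 63.8 and 61.7 against 0.111 and 0.0559 (5.88, SE 0.17, limma adjusted p = 2.51e-07), and Grin1os, antisense to the NMDA receptor gene Grin1, was at 33.4 and 39.1 against 0.289 and 0.0638 (4.99, SE 0.18, adjusted p = 7.13e-07). The other 7 were Fam219aos, Tmem150b, Gdf1, a growth factor gene, Slc3a1, an amino acid transporter subunit, Gpr39, a zinc-sensing receptor, Wdr89 and Omd, with log2 differences of 5.04 for Gdf1, 4.47 for Wdr89 and 4.37 for Omd. Tmem150b and Slc3a1, like Npcd, were listed at 0 in both KO controls. Npcd overlaps Nptxr, a receptor of neuronal pentraxins, which was at 139 and 180.3 in KO against 255 and 257. The difference of the 2 effects lay between -1.38 (Zbed5) and 0.50 (Omd) at the 19 genes other than Snhg9, and at none of the 20 did it pass the adjusted limma test.

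**Figure D2:**
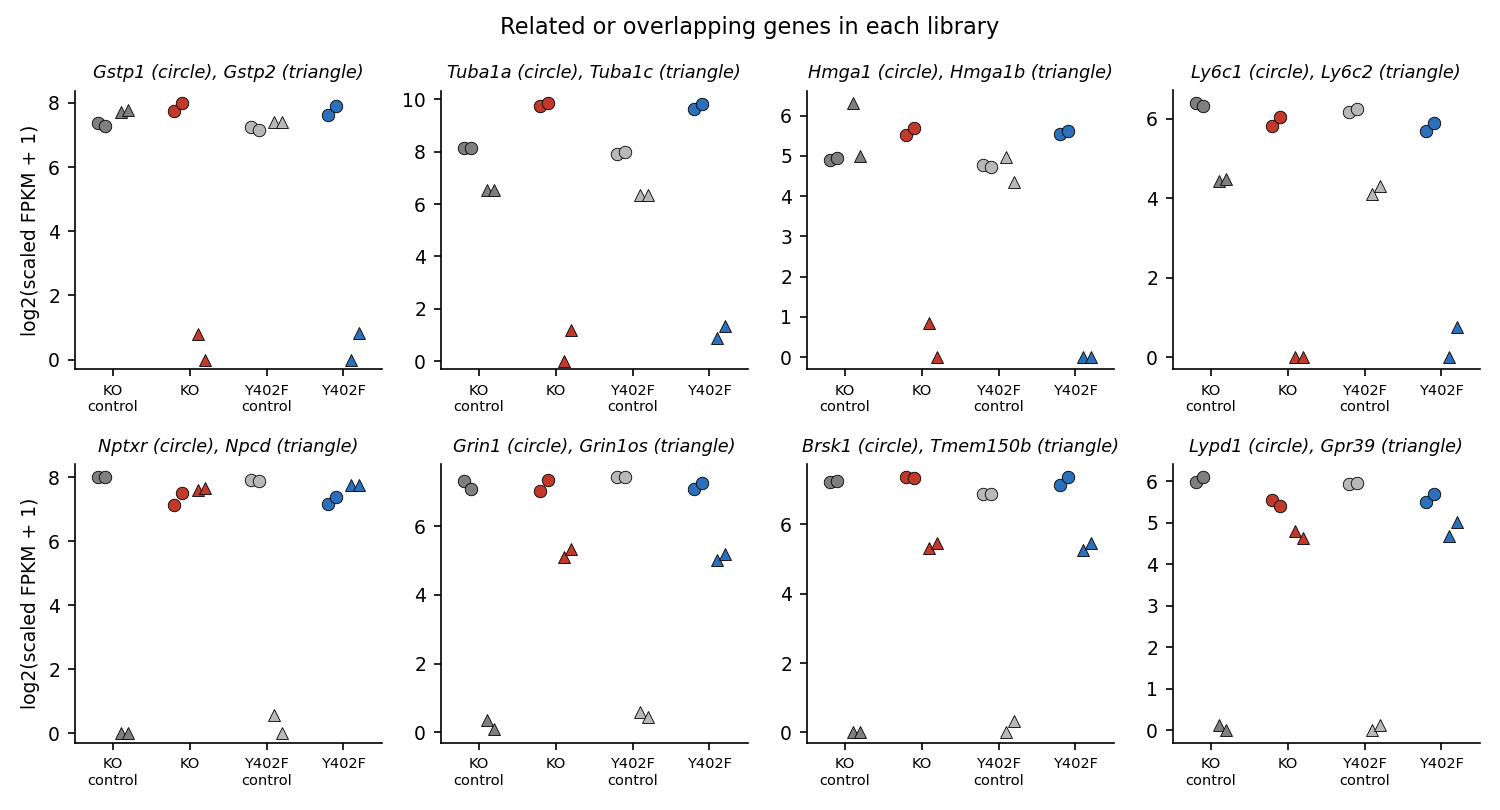
Level of 4 genes that fell (Gstp2, Tuba1c, Hmga1b, Ly6c2) and 4 that rose (Npcd, Grin1os, Tmem150b, Gpr39) as triangles, each with a related or overlapping gene as circles, in log2(scaled FPKM + 1) in each of the 8 libraries. The triangles of both mutants lie together and far from those of both control groups, while the circles differ less.

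Genes that rose most were often genes that share sequence with a neighbour. Among the 159 genes with a KO difference above 2, 59.7% shared at least 10% of their exon bases with another gene in the annotation, compared with 13.8% of the 11257 genes between -1 and 1 and 21.2% of the 184 below -2. Of these 159 genes, 155 had the same sign in Y402F (97.5%, beside 76.0% of the genes between -1 and 1). Antisense transcripts had a median difference of 0.76 and 65 of 131 were higher in KO, and processed pseudogenes had a median of -1.99 with 22 of 36 lower. The medians in Y402F were 0.64 and -2.10. These values moved with table type in both lines, and their part in the KO differences of such genes was not tested.

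The KO difference also varied with transcript length. In the shortest of 10 equal groups of genes (53 to 1096 bases) the median difference was -0.38, with 12.7% of genes higher and 36.0% lower. In the longest group (6095 to 21718 bases) it was 0.18, with 25.9% higher and 14.8% lower. The corresponding Y402F medians were -0.11 and 0.02, so the slope was steeper in the KO comparison. Other settings were followed gene by gene for 80 of the genes named here. After centring within 20 length bins, 79 of these 80 kept the direction of their KO difference and their side of the threshold. The exception was Ptk2, which then passed. The immediate early genes had a median of 0.61 and 17 of 33 higher after centring.

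**Figure D3:**
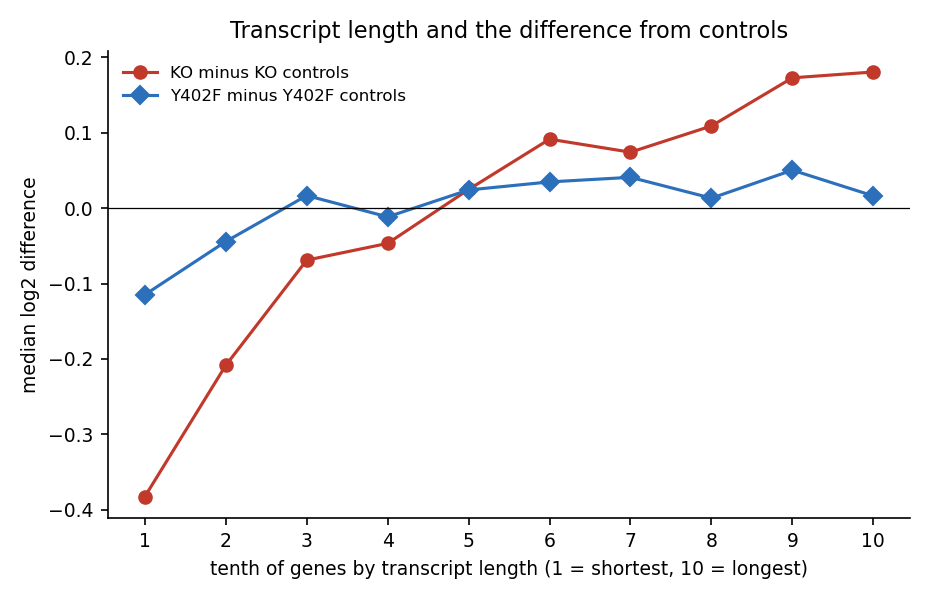
Median log2 difference from controls (vertical axis) in 10 equal groups of genes ordered by transcript length (horizontal axis), for KO and for Y402F. The KO medians climb from -0.38 to 0.18, whereas the Y402F medians stay between -0.11 and 0.05.

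Immediate early genes, which neurons switch on rapidly after activity, stood higher in KO than in KO controls. Of 33 tested, 18 were higher and 1 was lower, beside 16.7% higher and 20.9% lower among all genes, and their median difference was 0.55, with 0.00 over all genes. In Y402F, 4 were higher and 2 lower, and the median was 0.06. KO libraries lay wholly above the controls at 26 of the 33 (35.7% of all genes did so) and wholly below at 2. The number higher was 14 without KO 1, 10 without KO 2, 12 without KO control 1 and 14 without KO control 2. In this and the lists below, a count of 3 or fewer changed by at most 2 when 1 library was left out. The shares of 16.7% higher and 20.9% lower among all genes also stand beside the counts of the lists below. The immediate early list holds transcription factors, phosphatases and effector genes, and they are taken in that order.

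Among the transcription factors 11 of 16 were higher and 1 lower, with a median of 0.82. Egr1, the zinc-finger factor most used as a marker of memory-related activity, was at 66.2 and 81.6 in KO and at 19.2 and 18.6 in KO controls, while Y402F had 59.1 and 43.3 and its controls 39.1 and 40.6. Its KO difference was 1.91 (SE 0.16, limma adjusted p = 5.78e-05), and the KO libraries were the highest and the KO controls the lowest of all 8. Fos, of the AP-1 family, was at 7.88 and 12.4 in KO, 2.75 and 1.60 in KO controls, 4.07 and 3.84 in Y402F and 7.45 and 5.32 in Y402F controls (KO difference 1.80, SE 0.27, adjusted p = 0.00119). Npas4, a calcium-dependent factor of excitatory neurons, was at 4.30 and 8.39 in KO and at 0.989 and 0.899 in KO controls, with 2.03, 1.28, 1.99 and 1.92 in the libraries of the Y402F line (1.86, SE 0.29, adjusted p = 0.00151). At Fos and Npas4 the KO libraries again held the 2 highest values of the series and the KO controls the 2 lowest.

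Nr4a1, an orphan nuclear receptor, was at 35.2 and 45.4 in KO and 13.1 and 14.8 in KO controls (1.46, SE 0.15, limma adjusted p = 0.00021), with 30.1 and 24.9 in Y402F against 23.2 and 24.2. Junb, an AP-1 partner of Fos, was at 49.2 and 69.5 against 18.8 and 23.0 (1.45, SE 0.17, adjusted p = 0.000411), with 37.8 and 33.8 in Y402F against 30.8 and 34.4. In each case KO 2 exceeded KO 1, and no KO library overlapped a control. Egr4 (11.997 and 20.8 against 5.73 and 6.01), Egr2 (1.96 and 2.21 against 0.631 and 0.597) and Nr4a3 (24.8 and 27.1 against 12.7 and 13.0) were also higher, by 1.29, 0.93 and 0.95, though Egr2 lost its call without any 1 of the 4 libraries (limma adjusted p = 0.0741 to 0.11). Jund, the AP-1 member that is expressed without stimulation, was the exception. It was at 46.0 and 52.4 in KO and at 72.9 and 79.3 in KO controls (-0.62, SE 0.11, adjusted p = 0.00338). Egr3 (0.25), Nr4a2 (0.28) and Fosb (0.71) did not pass, with limma adjusted p = 0.132, 0.287 and 0.0643.

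The promoters of 4 of these factors are shown because all 4 were called higher in KO than in KO controls. They were picked from the factors that rose, and in Y402F they did not all move the same way. Each line gives the 250 bases before the start of transcription, 5′ to 3′ on the strand of the gene, from RefSeq on GRCm38.p6. Capitals mark TGACG or its reverse complement CGTCA, the core of the cyclic AMP response element.

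Fos promoter, chr12:85473640-85473889, plus strand: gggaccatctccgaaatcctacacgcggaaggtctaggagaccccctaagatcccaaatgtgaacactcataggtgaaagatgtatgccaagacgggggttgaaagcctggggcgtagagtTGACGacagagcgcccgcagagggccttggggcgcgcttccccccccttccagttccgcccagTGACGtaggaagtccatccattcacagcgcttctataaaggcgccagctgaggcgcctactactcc

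Npas4 promoter, chr19:4989972-4990221, minus strand: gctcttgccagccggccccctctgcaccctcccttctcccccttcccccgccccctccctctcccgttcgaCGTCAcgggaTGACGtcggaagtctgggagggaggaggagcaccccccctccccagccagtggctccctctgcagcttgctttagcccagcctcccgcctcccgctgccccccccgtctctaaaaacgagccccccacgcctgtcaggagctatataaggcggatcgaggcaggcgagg

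Nr4a1 promoter, chr15:101266596-101266845, plus strand: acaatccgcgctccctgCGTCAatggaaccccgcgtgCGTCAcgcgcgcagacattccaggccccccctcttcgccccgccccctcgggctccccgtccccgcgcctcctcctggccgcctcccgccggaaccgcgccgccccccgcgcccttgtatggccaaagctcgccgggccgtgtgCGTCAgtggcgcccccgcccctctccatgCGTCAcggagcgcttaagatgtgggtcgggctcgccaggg

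Junb promoter, chr8:84978749-84978998, minus strand: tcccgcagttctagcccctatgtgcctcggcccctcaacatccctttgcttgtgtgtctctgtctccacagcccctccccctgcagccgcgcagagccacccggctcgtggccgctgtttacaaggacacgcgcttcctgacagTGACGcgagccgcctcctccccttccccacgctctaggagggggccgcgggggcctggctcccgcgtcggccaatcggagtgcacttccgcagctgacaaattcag

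TGACG, on either strand, was present at 2 places in the Fos window, 2 in Npas4, 4 in Nr4a1 and 1 in Junb. Of 34 immediate early genes 25 had a promoter in the table, and 16 of them held TGACG, beside 30.4% of the 10252 tested genes with a promoter and 17.8% of all 32851 promoter windows. The full palindrome TGACGTCA, which contains TGACG, was in 2 of the 25 (2.99% of tested genes; 1.55% of windows), and the serum response element was in 1 (1.38%; 1.47%). The windows are short, and these matches describe letters and not bound sites.

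Dusp1, Dusp4 and Dusp6, phosphatases that switch off MAP kinases, were all higher in KO, by 0.82, 0.58 and 0.68, though Dusp4 lost its call without KO 1, KO 2 or KO control 1 (limma adjusted p = 0.128, 0.111 and 0.17). Dusp1 was at 13.86 and 13.997 in KO against 6.81 and 8.18, and in Y402F it was at 12.53 and 11.006 against 12.95 and 10.98. Among the effectors, Arc, a capsid-forming regulator of AMPA receptor trafficking, was at 61.0 and 81.4 in KO and at 17.3 and 18.2 in KO controls (1.93, SE 0.16, limma adjusted p = 6.3e-05), with 53.4 and 41.4 in Y402F against 33.7 and 35.6. Arc was thus the largest rise of the list, with every KO value above every other library. Bdnf (10.2 and 10.8 against 7.08 and 7.67), Nptx2 (16.8 and 19.0 against 14.5 and 13.7) and Homer1 (16.3 and 15.2 against 19.9 and 18.5) did not pass the test, with adjusted p = 0.157, 0.107 and 0.252.

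Part of the distance lay on the control side. KO controls were below Y402F controls at Arc, Egr1, Fos, Npas4, Nr4a1 and Junb, in each case without overlap. By Xist and Ddx3y both KO controls were female and both Y402F controls male, so line and sex cannot be told apart between them. With the Y402F controls in place of the KO controls, a comparison chosen after the data were seen, 11 of the 33 genes were higher and the median was 0.26. Arc, Egr1, Npas4, Nr4a1 and Junb were among those 11. So was Fosb (0.83, limma adjusted p = 0.0411), which had no call against the KO controls. Fos, Egr4, Nr4a3, Dusp1, Dusp6 and Jund had no call. Egr2 was called lower (-0.84, limma adjusted p = 0.0431), the reverse of its call against the KO controls. Between KO and Y402F, where table type did not change, no immediate early gene passed the adjusted edgeR test, whereas DESeq2 on the same libraries called Npas4 (1.94, adjusted p = 0.0329). In edgeR the differences at Npas4 and Fos were 2.335 and 1.635 without KO 1, and 1.38 and 1.00 without KO 2. They were 2.31 and 1.39 without Y402F 1, and 1.65 and 1.32 without Y402F 2. Such fits leave 1 library in a group, whose own spread is not measured, so no p-values are given for them. With the replicate number as a block neither gene passed (edgeR adjusted p = 0.937 for both). At an unadjusted p under 0.05, 9 were higher and 1 was lower in KO. The edgeR differences were 1.94 for Npas4 (adjusted p = 0.0863), 1.35 for Fos (adjusted p = 0.147), 0.73 for Junb, 0.59 for Arc and 0.53 for Egr1. These comparisons share the KO libraries, so they are not independent of each other. Sex differed between KO 2 and the other libraries of the KO comparison, and with a term for sex 16 of the 33 genes were higher in KO than in KO controls and the median was 0.57. No immediate early gene passed in the difference of the 2 effects after adjustment, and 17 were higher and 1 lower at an unadjusted limma p under 0.05.

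**Figure D4:**
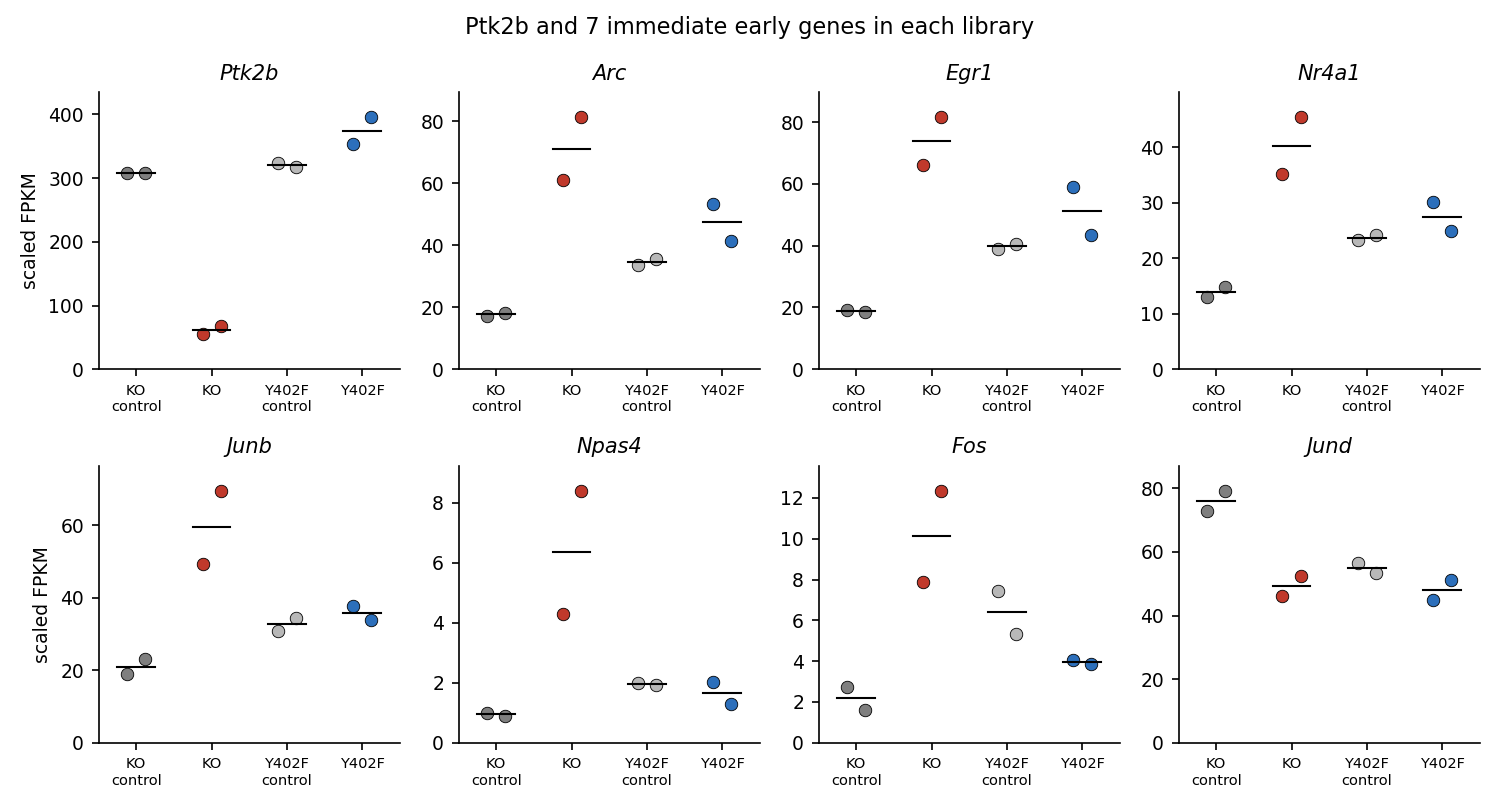
Scaled FPKM (vertical axis, from 0) of Ptk2b and 7 immediate early genes in each library (points; lines are group means, n = 2). At Arc, Egr1, Nr4a1, Junb, Npas4 and Fos the KO libraries are the highest and the KO controls the lowest, and at Jund the KO controls are the highest.

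A rule asking for the same sign and an unadjusted p under 0.05 in the KO comparison after adjustment, in the difference of effects and in KO against Y402F left 32 genes, 15 higher and 17 lower. The 3 comparisons share the KO libraries, so the count is a description. Npas4 and Fos led the genes that were higher, and Egr2, Junb and Egr4 were among the first 10. The others of those 10 were Dynlt1c, a dynein light chain, Zfp383, Pkmyt1, an inhibitory kinase of the cell cycle, Abhd14b and Nucb2, the precursor of nesfatin. Nucb2 was at 12.2 and 9.88 in KO, 6.99 and 6.59 in KO controls, 7.20 and 7.36 in Y402F and 9.55 and 8.78 in Y402F controls. Its KO difference was 0.62 (SE 0.15, limma adjusted p = 0.0129), and KO 2 lay close to the higher Y402F control. It lost its call without KO 1 (adjusted p = 0.0885) or KO control 2 (adjusted p = 0.0594), and against the Y402F controls (0.24, adjusted p = 0.263).

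Ptk2b led the genes that were lower. Cd74, the invariant chain of MHC class II, was at 1.19 and 0.753 in KO against 5.28 and 4.71 (-1.61, SE 0.42, limma adjusted p = 0.0168). Its Y402F values, 1.49 and 6.04, were far apart, with 10 and 42 estimated reads beside 8 and 6 in KO. Fmod, a collagen-binding proteoglycan, was at 0.828 and 1.74 against 5.19 and 4.10 (-1.33, SE 0.31, adjusted p = 0.0106), and Y402F had 3.56 and 6.98. Without 1 library Cd74 lost its call when this was KO 1, KO 2 or KO control 1, and Fmod when it was KO 1 or KO control 1 (limma adjusted p = 0.0519 to 0.102). Mgp, matrix Gla protein, was at 16.8 and 14.6 against 42.0 and 35.7 (-1.26, SE 0.13, adjusted p = 0.000206), with 25.4 and 28.4 in Y402F. At Cd74, Fmod and Mgp the KO libraries were the lowest of all 8, but against the Y402F controls Cd74 (-0.63, limma adjusted p = 0.282) and Fmod (-0.90, limma adjusted p = 0.0549) had no call. Spp1, which encodes osteopontin, was at 1.51 and 0.637 against 3.63 and 3.19 (-1.12, SE 0.24, adjusted p = 0.00721). The remaining genes of the first 10 were Rsc1a1, Tmem254a, Scarf2, Naa16 and Acads, with Tmem254a at 1.03 and 1.995 against 17.7 and 18.4. In the same libraries markers of leptomeninges and fibroblasts summed to 304.5 and 492 in KO and to 1047 and 1039 in KO controls, mainly through Ptgds, while Col1a1 was at 1.27 and 1.76 against 1.60 and 1.14. The part of meningeal tissue in these differences was not tested.

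Only 12 genes were called in both lines with opposite signs. Wsb1, a ubiquitin ligase subunit, was at 10.4 and 7.81 in KO against 2.79 and 4.33 in KO controls, and at 8.70 and 7.18 in Y402F against 16.4 and 17.4. Trank1 showed the same pattern, at 10.7 and 11.4 against 5.55 and 5.26 and at 14.2 and 10.2 against 17.9 and 20.8. Taldo1, of the pentose phosphate pathway, went the other way, at 44.1 and 54.0 against 66.0 and 74.0 and at 46.5 and 52.7 against 33.3 and 37.0. In these 3 genes the mutant libraries lay closer together than the 2 sets of controls did. The others were Dynlt1c, Egr2, Klf10, Hid1 and Kif1b, higher in KO, and Emc6, Prkcz, Rny1 and Thrsp, lower in KO. They were named after their values were seen.

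Genes that act upstream of Pyk2 moved in both directions. Of 17 tested activators, 5 were higher and 2 lower, with a median of 0.16 and of -0.10 in Y402F. Calm3, a calmodulin gene, was at 1366 and 1472 against 3022 and 2982 (-1.08, SE 0.07, limma adjusted p = 1.14e-05), with -0.90 in Y402F. Without KO 1, KO 2, KO control 1 or KO control 2 the number higher was 2, 2, 1 and 2. None of the 7 genes tested in the NMDA receptor list, which includes Grina although it is not a subunit, passed in limma. None had an unadjusted limma p under 0.05, as 47.3% of all genes did. Grin1, the obligatory subunit, was at 128 and 161 in KO against 156 and 134, and Grin2b at 10.99 and 14.5 against 22.7 and 16.8.

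Of 12 Src family kinases and regulators, 2 were higher and 4 lower, with a median of -0.07. Fyn, the Src family kinase that phosphorylates NMDA receptor subunits, was at 46.1 and 43.9 against 96.2 and 93.4 (-1.06, SE 0.11, limma adjusted p = 0.000208), and in Y402F at 48.5 and 49.1 against 70.9 and 87.3 (-0.68). Csk, the kinase that holds Src kinases inactive, was at 10.6 and 10.9 against 18.3 and 24.0 (-0.90, SE 0.16, adjusted p = 0.00267). Ptprj, a receptor phosphatase that can activate Src kinases, was higher, at 26.5 and 28.1 against 12.3 and 10.99 (1.17, SE 0.12, adjusted p = 0.000158). Fyn, Csk and Ptprj were called in the same direction in Y402F. Without KO 1 or KO control 2 the number lower was 2.

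Direct partners and substrates of Pyk2 were close to the background, with 7 higher and 8 lower of 33 and a median of 0.09. Without KO 1, KO control 1 or KO control 2 the number higher was 3, 4 and 4. Ewsr1, an RNA-binding protein, had the smallest p, at 74.5 and 84.5 against 351 and 355, and it was at 83.8 and 74.6 against 522 and 608 in Y402F. Tgfb1i1, the paxillin relative Hic-5, was at 3.04 and 2.39 against 7.28 and 6.57, and Pitpnm1, a Pyk2-binding lipid transfer protein, at 36.1 and 36.9 against 68.1 and 78.1. Their differences were -1.10 and -0.98 in KO and -0.87 and -1.05 in Y402F. Dlg4, the scaffold PSD-95 that binds Pyk2, was at 382 and 415 against 655 and 628 (-0.69, SE 0.08, limma adjusted p = 0.000307), with -0.46 in Y402F. Pxn, which encodes paxillin, is outside the naming rule and was picked after its values were seen. It was at 7.01 and 7.32 in KO, 13.7 and 12.7 in KO controls, 7.82 and 9.43 in Y402F and 7.49 and 9.68 in Y402F controls (KO difference -0.80, SE 0.17, adjusted p = 0.00641), so the KO controls stood apart from the other 6 libraries, and against the Y402F controls the KO had no call (adjusted p = 0.337).

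Integrins and focal adhesion proteins gave 2 higher and 5 lower of 20 (2, 4, 3 and 4 lower without KO 1, KO 2, KO control 1 and KO control 2). Tln1, talin, the link from integrins to actin, was at 3.86 and 4.30 against 22.6 and 17.5 (-2.04, SE 0.19, limma adjusted p = 8.88e-05), with -1.45 in Y402F. Itgb5, an integrin beta subunit, was at 12.6 and 14.4 against 24.5 and 32.0 (-1.002, SE 0.18, adjusted p = 0.00343), whereas Y402F had 13.7 and 16.3 against 9.89 and 12.9. Against the Y402F controls the KO difference of Itgb5 was positive. In the Ras-ERK and CREB pathway 6 of 26 were higher and 7 lower, and without KO 1, KO 2, KO control 1 and KO control 2 the number higher was 3, 4, 3 and 1. Crem, a repressor of CREB targets, was at 3.87 and 4.23 against 12.1 and 16.1 (-1.57), and Hras, a Ras GTPase, at 57.1 and 57.8 against 114 and 123.4 (-1.03). Adcy1, the calmodulin-stimulated adenylyl cyclase, was higher, at 114 and 123.2 against 57.7 and 58.9 (1.01). These 3 were called in the same direction in Y402F, by -0.86, -0.79 and 0.65.

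The genes around Ptk2b on chromosome 14 did not share its fall. Of 17 neighbours tested, 4 were higher and 3 lower (2 higher without KO 2 or KO control 1), with a median of 0.22 and of 0.18 in Y402F. Stmn4, a microtubule regulator, was at 165 and 165 against 299.5 and 308 (-0.88, SE 0.07, limma adjusted p = 5.47e-05), and it was also lower in Y402F (-0.48). Dpysl2, a growth cone protein, was higher, at 24.7 and 24.4 against 17.2 and 17.4 (0.48, SE 0.11, adjusted p = 0.0094; 0.56 in Y402F).

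Synaptic genes were called higher more often than lower in 3 of 5 lists. AMPA and kainate receptor genes gave 5 higher and 0 lower of 15 (median 0.27), beside 16.7% higher among all genes. The GABA-A receptor list, which includes the scaffold gene Gphn, gave 6 and 0 of 13 (0.40), and vesicle genes gave 8 and 0 of 19 (0.18). In Y402F the same lists gave 5 and 0, 3 and 1, and 7 and 0. With 1 of the 4 libraries left out, 2 to 4 of the AMPA and kainate receptor genes and 3 to 6 of the vesicle genes were higher, the fewest without KO 2 and KO control 1 for the receptors and without KO control 1 for vesicle genes. Between KO and Y402F, edgeR differences were positive at 4 of the 15, 5 of the 13 and 12 of the 19, with 0 in these 3 lists at an unadjusted p under 0.05. Gria1, the AMPA receptor subunit GluA1, was at 213 and 219.8 against 149 and 145 (0.55, SE 0.09, limma adjusted p = 0.00222). Cplx2, complexin, was at 487 and 436 against 314 and 319 (0.54, SE 0.08, adjusted p = 0.00151). The Y402F differences at these 2 genes were 0.36 and 0.51. Postsynaptic scaffolds had 9 positive and 9 negative differences, a median of -0.05, and 2 called higher and 5 called lower of 18 (3 lower without KO 1 or KO control 2), which is close to the 20.9% lower among all genes. Dlgap4, of a scaffold family that binds PSD-95, was lower, with a difference of -0.83. Genes that act on actin were called in both directions. Cttn, cortactin, was at 56.4 and 66.0 against 135 and 137 (-1.15), Cfl2, a cofilin, at 24.7 and 19.5 against 51.8 and 57.8 (-1.28), and Wasf1, of the WAVE complex, at 175 and 184 against 115 and 108 (0.68). The Y402F differences of these 3 were -1.63, -1.72 and 0.39.

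Markers of cell types and regions were compared in the same way. In bulk tissue fewer cells of a type and less RNA per cell cannot be told apart. Dentate granule cell markers were higher at 8 of 14 and lower at 0, beside 16.7% higher among all genes, with a median of 0.47 (0.25 in Y402F, 5 higher). Without KO 2 or KO control 2 the number higher was 5. Between KO and Y402F the edgeR difference was positive at 2 of the 14, with a median of -0.19 and 2 lower at an unadjusted p under 0.05. C1ql3, a synaptic organizer, was at 58.3 and 53.3 against 19.3 and 18.2 (1.52, SE 0.10, limma adjusted p = 1.94e-05). Prox1, the granule cell transcription factor, was at 15.1 and 16.6 against 8.67 and 9.31 (0.75, SE 0.13, adjusted p = 0.00257), while the Y402F line had 19.8 and 19.0 against 17.8 and 15.5. At Prox1 the KO controls were the lowest of the 8 libraries, and the KO lay between them and the Y402F mutants, with a negative difference against the Y402F controls. CA1 markers gave 1 higher and 1 lower of 9, CA2 markers 2 and 0 of 7, and CA3 markers 0 and 0 of 10. The CA1 gene called lower was Dcn, decorin, which is also a leptomeningeal marker (-0.72, SE 0.23, limma adjusted p = 0.0399; -1.02 in Y402F). Map3k15, listed as a CA2 marker, was at 13.6 and 11.3 against 0.150 and 0.302, and at 13.3 and 12.5 against 0.221 and 0.369 in Y402F. Interneuron markers gave 1 higher and 4 lower of 19. Dlx1, a transcription factor of interneurons, was at 10.9 and 9.77 against 18.7 and 17.0 (-0.74, SE 0.13, adjusted p = 0.00351; -0.83 in Y402F). Neocortical markers gave 1 and 1 of 13, and striatal markers 0 and 1 of 9.

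Astrocyte markers were split, with 4 higher and 6 lower of 16. Aldoc, an astrocytic aldolase, was at 368 and 360.0 against 1421 and 1473 (-1.99, SE 0.07, limma adjusted p = 7.18e-07; -1.51 in Y402F), whereas Slc1a3, a glutamate transporter, was at 193 and 188 against 145 and 149 (0.38, adjusted p = 0.00503). Myelin genes were split too, with 5 higher and 3 lower of 17 (3, 2 and 3 higher without KO 2, KO control 1 and KO control 2). Mobp was at 112 and 104 against 284 and 289.6 (-1.40) and Opalin at 37.3 and 45.9 against 16.8 and 17.8 (1.21), and Y402F gave -1.54 and 1.13. Microglial markers gave 0 higher and 3 lower of 16. Tyrobp, a microglial signalling adaptor, was at 21.5 and 21.7 against 45.8 and 47.5 (-1.08, SE 0.12, adjusted p = 0.000322), and Y402F was at 19.2 and 23.6 against 26.0 and 23.9. Against the Y402F controls neither Tyrobp nor Slc1a3 had a call in KO. Cx3cr1, the fractalkine receptor, was at 16.8 and 14.01 against 11.03 and 11.1 and did not pass (adjusted p = 0.0519).

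Leptomeningeal and fibroblast markers gave 0 higher and 5 lower of 14 (3 lower without KO control 1), with a median of -0.30. Ptgds, prostaglandin D synthase, was at 230.0 and 412 in KO and at 908 and 901 in KO controls (-1.55, SE 0.28, limma adjusted p = 0.00342), with 338 and 570.4 against 541 and 541 in Y402F. Igf2, an imprinted growth factor of the meninges, was at 13.8 and 18.3 against 42.8 and 39.4 (-1.32, SE 0.20, adjusted p = 0.0014; -0.91 in Y402F). At both genes KO 1 was the lowest library of the series. Acta2, smooth muscle actin, was at 7.10 and 9.50 against 22.9 and 20.5 (-1.30). Against the Y402F controls Ptgds and Acta2 had no call in KO (adjusted p = 0.0576 and 0.0522). Endothelial and pericyte genes gave 2 higher and 2 lower of 18. Among blood genes Hba-a2 (34.7 and 28.5 against 133 and 142) fell, while Hba-a1, a near-identical copy, was at 115 and 189.8 against 113 and 129. How reads were divided between these 2 copies was not tested.

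**Figure D5:**
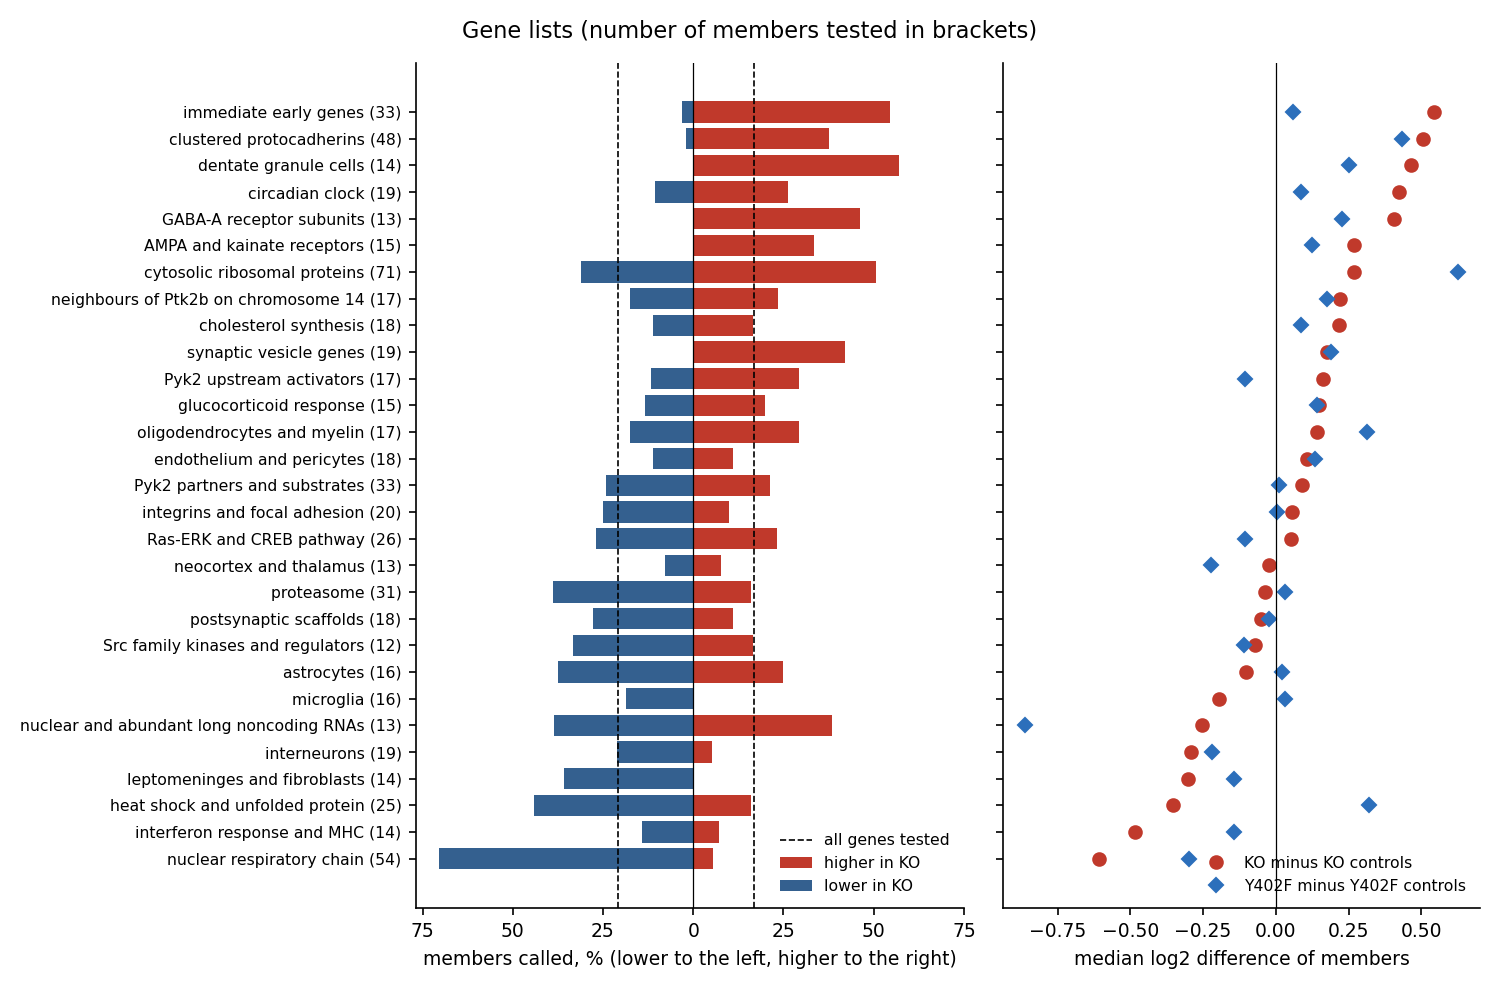
Left, the percentage of members called lower (to the left) and higher (to the right) in KO in the lists shown, each with at least 12 members tested, with dashed lines at 20.9% and 16.7% for all genes. Right, the median log2 difference of each list in KO and in Y402F: immediate early genes have 0.55 and 0.06, and the respiratory chain has -0.61 and -0.30, directions that hold relative to the median gene and that for the chain reverse in sign with equal sums.

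Subunits of the mitochondrial respiratory chain encoded in the nucleus were the list with the largest share of lower calls, 38 of 54 with 3 higher and a median of -0.61, although with FPKM sums set equal the median was 1.19 beside 1.51 over all genes. In Y402F 24 were lower and 6 higher, with a median of -0.30. By complex, 19 of 23 subunits of complex I, 1 of 4 of complex II, 4 of 7 of complex III with cytochrome c, 7 of 9 of complex IV and 7 of 11 of complex V were lower. Cox7b, of complex IV, was at 107 and 94.6 against 1445 and 1434 (-3.83, SE 0.10, limma adjusted p = 2.21e-07; -3.71 in Y402F). Ndufa10, of complex I, was at 95.3 and 113 against 326 and 293 (-1.57, SE 0.11, adjusted p = 1.93e-05; -0.85 in Y402F), and Cox6b1 at 472 and 486 against 1244 and 1306 (-1.41; -1.10 in Y402F). At Ndufa10 the Y402F controls, at 186 and 173, lay between the KO controls and the mutants. The transcripts are short, with a median of 654 bases, and after centring within 20 length bins 26 of 54 were lower and the median was -0.27. With the Y402F controls, 18 were lower and the median was -0.24. Between KO and Y402F, edgeR differences were positive at 35 of the 54, with 0 at an unadjusted p under 0.05.

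Cytosolic ribosomal protein genes were called in both directions at a high rate, 36 higher and 22 lower of 71. Among all genes 16.7% were higher and 20.9% lower, and in Y402F 42 of these genes were higher and 8 lower. In KO the large subunit had 21 higher and 11 lower of 39 and the small subunit 14 and 10 of 30. Rpl17 was at 473 and 462 against 48.2 and 47.7 (3.26, SE 0.11, limma adjusted p = 6.15e-07), and Rps15a at 20.7 and 21.5 against 215 and 258 (-3.42, SE 0.11, adjusted p = 5.3e-07). The Y402F differences were 3.51 and -2.37. These genes have many processed pseudogenes, and how reads were divided between copies was not tested. Proteasome genes gave 5 higher and 12 lower of 31 (median -0.04; 3 higher without either KO control), with Psmd13 at 31.8 and 41.0 against 101 and 92.1 (-1.39; -1.19 in Y402F).

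Chaperones of the endoplasmic reticulum and cytosol gave 4 higher and 11 lower of 25 (5 lower without KO 2, 6 without KO control 1), with a median of -0.35 in KO and of 0.32 in Y402F. Manf, a secreted stress protein, was at 17.9 and 15.7 against 73.0 and 70.0 (-2.03, SE 0.11, limma adjusted p = 5.15e-06), with -1.25 in Y402F. Hsp90b1, the chaperone of the endoplasmic reticulum, was at 108 and 81.2 against 196 and 185 (-1.02, SE 0.15, adjusted p = 0.00141), and Hspa8, of the cytosol, at 1079 and 1068 against 684 and 698 (0.63, SE 0.06, adjusted p = 0.000127). Outside the naming rule, and picked after their values were seen, Calr, calreticulin, and Pdia6, a disulfide isomerase, set the KO controls apart. Calr was at 216 and 202 in KO, 296 and 283 in KO controls, 221 and 208 in Y402F and 198 and 187 in Y402F controls. Pdia6 was at 32.4 and 28.9, 45.1 and 40.7, 37.2 and 35.4, and 29.2 and 28.4 in the same order. At both, the KO controls were the highest of the 4 groups.

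Clock genes gave 5 higher and 2 lower of 19 (3 higher without KO 2, KO control 1 or KO control 2), with a median of 0.42 (0.09 in Y402F). Nr1d1, the repressor REV-ERB alpha, was at 66.2 and 75.5 against 31.8 and 32.6 (1.11, SE 0.13, limma adjusted p = 0.000369), with 60.1 and 67.6 against 45.4 and 36.4 in Y402F. Tef, a clock output factor, was at 87.2 and 92.8 against 414 and 462, close to its Y402F values of 85.0 and 107 against 494 and 493. Among glucocorticoid-responsive genes, 3 higher and 2 lower of 15, the metallothionein gene Mt2 was at 198 and 242 against 630.5 and 584 (-1.47, SE 0.13, adjusted p = 8.61e-05; -0.85 in Y402F). Errfi1, a feedback inhibitor of EGF receptors, was at 18.1 and 26.1 against 11.3 and 11.8 (0.86, SE 0.17, adjusted p = 0.00476), with no call against the Y402F controls. Interferon and MHC genes gave 1 higher and 2 lower of 14, with H2-K1, an MHC class I heavy chain, at 14.5 and 15.1 against 38.8 and 44.2 (-1.42; -1.18 in Y402F). Cholesterol synthesis genes gave 3 higher and 2 lower of 18.

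Long noncoding RNAs were called in both directions, 5 higher and 5 lower of 13 (3 higher without KO 1). Gas5, a host gene of small nucleolar RNAs, was at 15.6 and 12.3 against 255 and 318 (-4.27, SE 0.14, limma adjusted p = 6.15e-07; -4.59 in Y402F). Miat, a nuclear RNA of neurons, was at 14.6 and 13.95 against 2.37 and 2.48 (2.16, SE 0.24, adjusted p = 0.000258), whereas the Y402F line had 18.2 and 10.1 against 8.66 and 9.76, without a call. At Miat the KO controls were the libraries that stood apart, and against the Y402F controls the KO had no call. Clustered protocadherins, cell-surface proteins that give neurons an identity, gave 18 higher and 1 lower of 48 (11 higher without KO 1, 6 without KO 2, 12 without KO control 1 and 9 without KO control 2), with 3 and 0 of 9 in the alpha cluster, 2 and 0 of 18 in the beta cluster and 13 and 1 of 21 in the gamma cluster. Pcdhgc4 was the gene that fell, to 5.78 and 4.89 from 67.0 and 69.6, and in Y402F it was at 4.64 and 3.62 against 74.3 and 73.3. In Y402F 13 of the 48 protocadherins were higher and 2 lower, and among all genes 16.7% were higher in KO. The protocadherin median was 0.51 in KO and 0.44 in Y402F, and edgeR differences between KO and Y402F were positive at 18 of the 48. Genes of the alpha and of the gamma cluster share exons within their cluster, and how reads were divided between them was not tested.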

How the data were processed

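RNA-seq of whole hippocampus was deposited as 1 table a library, 2 libraries in each of 4 groups taken from the labels. Per the file headers, the deposited mutant tables hold FPKM and expected counts (estimated reads per gene), and the deposited control tables are Cufflinks output that holds FPKM only. The submitters' processing notes name Bowtie 1, HISAT, Cufflinks and mm9 without saying which tables they made, yet 99.79% of 54928 control genes share a start or end with GENCODE M21 on GRCm38.

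Of the genes in the mutant tables, 17629 were matched by symbol and 89 through Entrez numbers, 304 were not matched and 13 were dropped for a repeated identity. FPKM were scaled by median ratios over 11462 genes and tested with limma 3.58.1 in R 4.3.3 (intensity trend, log2 of the value plus 1, 4 groups, 4 residual degrees of freedom, Benjamini-Hochberg over 12977 genes). Expected counts were rounded to whole numbers and tested between KO and Y402F with edgeR 4.0.16 (quasi-likelihood, TMM, at least 10 counts in total), with DESeq2 1.42.0 as an alternative. Joins, tables and plots were made in Python 3.11.15 with pandas 2.3.3, numpy 2.4.6 and matplotlib 3.10.9. The fits were tested on simulated data. With 2 libraries a group precision is low, and no depth is known for the controls.

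Named genes were Ptk2b and Ptk2, the 10 largest rises and falls whose libraries did not overlap (gene models without a proper symbol and small RNA, histone and mitochondrial symbols left out), up to 10 in each direction that moved alike in 3 comparisons, up to 4 members a list with the smallest p, and genes called in the comparisons with 5 calls or fewer. The members, the gene lists and the tests were chosen with earlier results of these data known. Some members that the rule names, and 1 list, are not reported here.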

Additional observations from a re-analysis of the deposited data

Results flagged for a closer look

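The KO effect differed from the Y402F effect at 4 genes by the limma test of the difference itself (adjusted over 12977 genes). At Ptk2b the difference of effects was -2.52 on the log2 scale (adjusted p = 0.000411). A830082N09Rik had a difference of effects of -6.70 (adjusted p = 2.19e-05), and it was at 2.86 and 2.06 scaled FPKM in KO against 399 and 449 in KO controls, with 2.61 and 1.90 in Y402F against 2.79 and 2.90 in its controls. The KO controls alone stood apart there.

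Rny1, a small noncoding RNA of the Ro particle, had a difference of effects of -5.64 (adjusted p = 8.44e-05). It was listed at 0 in both KO libraries against 13.8 and 13.9 in KO controls, and at 2.39 and 2.30 in Y402F against 0 in both its controls. Mir8104 had -4.42 (adjusted p = 0.000861) with 0 listed in all 4 libraries of the KO comparison, so its difference came from 22.9 and 18.3 in Y402F against 0 in both Y402F controls.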

How the results depend on the processing

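Setting the FPKM sums equal, which lets the most abundant RNAs of the controls set the scale, called 12003 genes in KO, 10553 in Y402F and 3481 in the difference of effects. Of the 80 named genes followed through the settings it turned 30 positive: Ptk2 1.28, Jund 1.17, Mgp 0.49, Spp1 0.049, Calm3 0.74, Fyn 0.73, Csk 0.80, Tgfb1i1 0.37, Pitpnm1 0.81, Dlg4 1.13, Pxn 0.84, Itgb5 0.72, Crem 0.029, Hras 0.77, Stmn4 0.94, Dlgap4 0.97, Cttn 0.65, Cfl2 0.49, Dlx1 0.95, Mobp 0.41, Tyrobp 0.69, Ptgds 0.27, Igf2 0.43, Acta2 0.39, Ndufa10 0.24, Cox6b1 0.41, Psmd13 0.40, Hsp90b1 0.79, Mt2 0.35 and H2-K1 0.32. The other genes named here were not followed in this way, and their directions under this setting are not given. Quantile normalization brought Bc1 to 0.0. The difference of effects gave 7 calls with no filter on low values, 2 at a mean of at least 5 FPKM, 2 with special symbols left out, 135 with a term for sex, and 6 to 15 with 1 library left out, where the lone library of a group is assumed to vary like the others. The cause was not tested. With 1 library left out the KO comparison called 3105 to 3593 genes. KO against Y402F gave 20 to 41 edgeR calls with 1 library left out, 2 with DESeq2 and 5 with limma on FPKM.

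The labels give replicate numbers but no shared litter or day, so no pairing was assumed. Deviations of same-numbered libraries correlated at 0.203 between KO and Y402F, where each library was closest to the one with its own number and sex, and at -0.0307 to 0.0486 between the other groups. With the number as a block the calls were 4935 in KO, 4212 in Y402F, 5 in the difference of effects and 2 in KO against Y402F. Ptk2 then passed (adjusted p = 0.033, limma), as it did without KO control 2 (-0.70), with FPKM as deposited (-0.60) and after centring within length bins (-0.57).

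Other control libraries were tried after seeing the data. The Y402F controls were male and the KO controls female by Xist and Ddx3y, so the swap changed sex as well as line. With the Y402F controls in place of the KO controls, Egr2 was at -0.84, Egr3 at -0.083, Nr4a2 at -0.43, Itgb5 at 0.24 and Prox1 at -0.064. Of these, Egr2 was called lower (limma adjusted p = 0.0431), and Itgb5 and Prox1 lost their call. Another 17 named genes kept their sign but lost their call. With all 4 controls Nr4a2 was at -0.074. Unknown control depth and 2 libraries a group limit every comparison with controls.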
